A study of Bos taurus with 31 samples.

Results

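The genes described here are the amino acid and peptide transporters of the solute carrier families SLC1, SLC3, SLC6, SLC7, SLC15, SLC36, SLC38 and SLC43. They were taken by name, as every row of the count table whose symbol starts with one of these 8 family names, the letter A and a digit, which gave 62 of 24616 genes. Of the 62, 50 had at least 20 reads summed over all cows and were tested. The 12 that did not were SLC1A6, SLC6A3, SLC6A5, SLC6A13, SLC6A15, SLC6A18, SLC6A19, SLC7A3, SLC7A14, SLC15A5, SLC36A2 and SLC36A3, and no read in any cow was assigned to SLC1A6, SLC6A13, SLC15A5, SLC36A2 or SLC36A3. The rule also took SLC7A6OS, which lies next to SLC7A6 and takes part of its name but is not a transporter, and it was kept in the counts.

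The liver takes up amino acids from portal blood for protein synthesis, gluconeogenesis and ureagenesis, and it returns others to the blood. Carriers of SLC1, SLC6 and SLC38 draw amino acids into the cell with the sodium gradient. Those of SLC15 and part of SLC36 use the proton gradient. Those of SLC43 and part of SLC7 exchange or release amino acids down their own gradients. The light chains of SLC7 reach the plasma membrane only when bound to a heavy chain, SLC3A2 or SLC3A1. In ruminants, the proportion of concentrate in the ration changes the supply of microbial protein and of energy, so that amino acid uptake by the liver is part of the response to feeding.

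Liver was sampled by puncture biopsy after 16 weeks on the group rations from 31 lactating German Holstein cows, 1 library per cow. CON cows received a control ration and GLY cows a ration with peas, wheat grain and straw from fields treated before harvest with a glyphosate formulation (Roundup Record). Concentrate made up 60% of dry matter in HC rations and 30% in LC rations, and silage and straw made up the rest of every ration. According to the paper, LC rations held more crude protein and less energy, and CON cows took in small residues of glyphosate. It also reports that GLYHC cows ate more and so took in more glyphosate than GLYLC cows. Within GLY cows, HC and LC therefore differ in glyphosate intake as well. The groups were CONHC (n = 8), CONLC (n = 8), GLYHC (n = 8) and GLYLC (n = 7, since the sample of 1 cow was lost), and all cows had received 1 common ration in the week before the group rations began. A biopsy holds all cells of the tissue, so that fewer cells of one type and less RNA per cell cannot be told apart.

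Between 11675775 and 36675542 reads per cow (median 19781078) were assigned to genes, and the 62 genes took 0.0825% to 0.136% of them (median 0.105%). All 8 hepatocyte markers, such as ALB and APOA1, were read in every group, and their summed level was 2160000 to 4360000 normalized read counts per cow. Values below are normalized read counts, that is, raw counts scaled by TMM factors to the mean library size. They are not divided by gene length and are compared between cows only, not between genes.

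GLYLC cow 912 stood apart from the other 30 cows before any comparison was made. It had the highest value of all 31 cows in 14 of the 50 transporter genes tested, against at most 3 for any other cow, and it was highest in 2391 of all 15916 genes tested. It was also highest in 8 of 10 intestinal epithelium markers, all but APOA4 and CDH17. That list was chosen with earlier results of these data known, so its count is not independent evidence. The enterocyte fatty acid binding protein FABP2 reached 4280 normalized counts in cow 912 and at most 3.39 in the other cows, and the summed level of the list was 14500 against at most 8750. APOA4, CDH17 and LGALS4 were read in every cow and add to that sum, with medians of 1110, 868 and 496 in the other cows. The hepatocyte sum of cow 912, 2160000, was the lowest of all cows. Of the 8 hepatocyte markers, it was lowest of all cows in 5, ALB among them, and highest in 2. These 2 were APOA1 (14900 against at most 13100) and FGB (879000 against at most 696000). The counts of transporter genes and of marker genes that are called or pass an unadjusted p under 0.05 are therefore given with and without this cow.

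Levels of the transporters that took the most reads differed between the 4 groups by less than the spread between cows. SLC38A4 and SLC38A3, sodium-coupled carriers of neutral and cationic amino acids and of glutamine, asparagine and histidine, and SLC6A11, a GABA carrier, together took 70.0% of the reads of the 62 genes (59.9% to 75.7% per cow). SLC38A4 had a mean of 7960 ± 1910 (SD, n = 8) in CONHC, 7270 ± 2380 (n = 8) in CONLC, 7130 ± 1300 (n = 8) in GLYHC and 7090 ± 1070 (n = 7) in GLYLC. SLC38A3 had means of 5890 ± 1060, 5530 ± 870, 5960 ± 745 and 5600 ± 1000 in the same order. Their ranges overlapped between all groups, and over all cows the log2 fold change of HC against LC was 0.07 (SE 0.12) for SLC38A4 and 0.09 (SE 0.08) for SLC38A3.

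**Figure D1:**
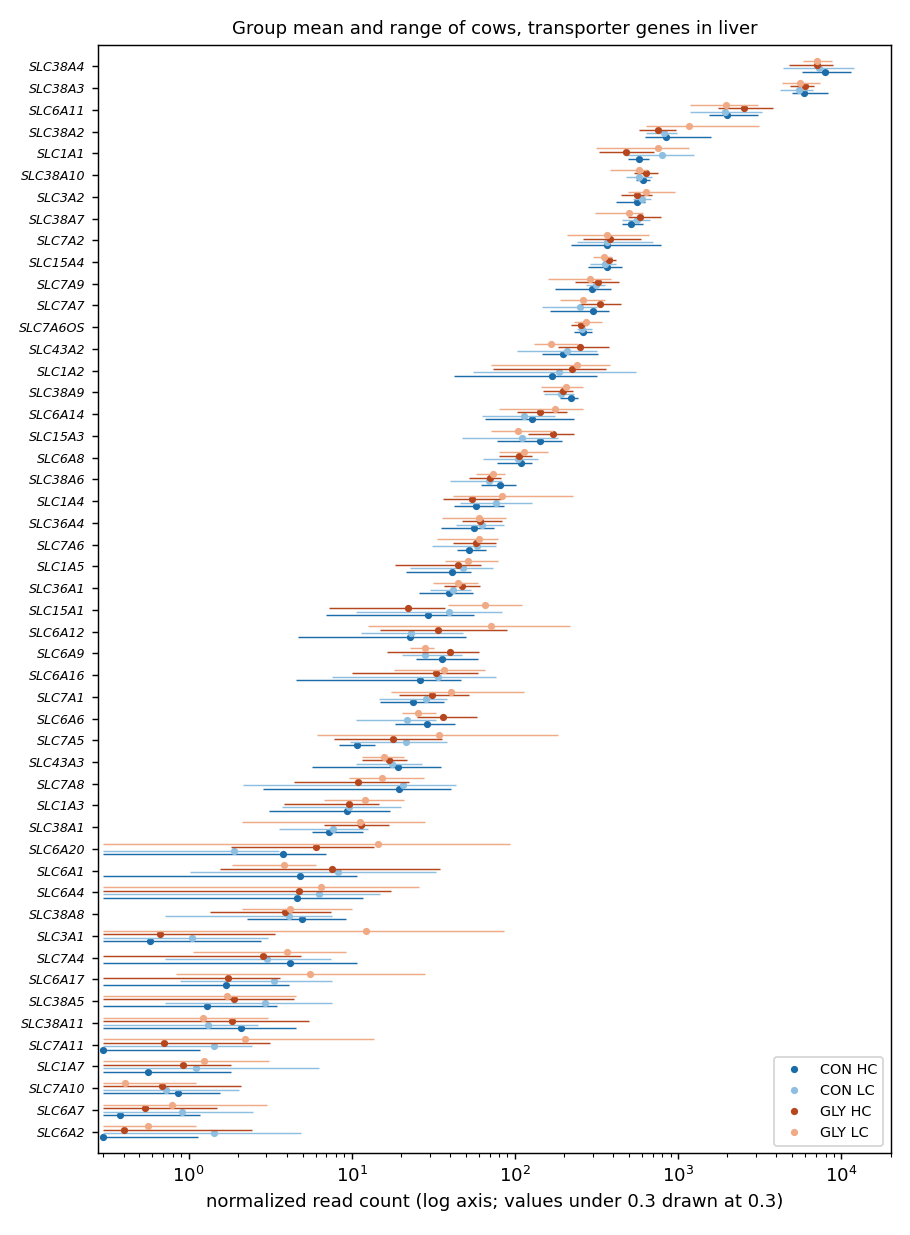
Normalized read counts (log axis, per cow) of the 50 genes with at least 20 reads, as group means (points) and lowest to highest cow (lines) for CON HC (n = 8), CON LC (n = 8), GLY HC (n = 8) and GLY LC (n = 7). The counts are not divided by gene length, so the order of genes is no order of transcript numbers. The 4 means lie close together for most genes, and the widest lines belong to genes with few reads and to genes with a high value in 1 GLY LC cow.

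By mean normalized count over all cows, 3 genes were above 1000, 16 between 100 and 1000, 16 between 10 and 100 and 15 below 10. Over all 31 cows, the SD of log2 CPM, the log2 of counts scaled to library size, had a median of 0.49 over the 50 genes, against 0.34 over all 15916 genes. Without cow 912 these medians were 0.46 and 0.32. The least variable was SLC7A6OS (SD 0.13), followed by the lysosomal histidine and peptide carrier SLC15A4 (0.17) and by SLC38A10 (0.18). The most variable were the imino acid carrier SLC6A20 (1.10), the serotonin carrier SLC6A4 (1.09) and SLC3A1 (1.02), each with few reads.

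Concentrate proportion was compared first over all cows, with treatment as a covariate. In edgeR's quasi-likelihood test, the call required p under 0.05 together with p under 0.1 after Benjamini-Hochberg adjustment over all 15916 genes. Among the 50 genes, SLC15A3 was called higher and SLC1A1 was called lower in HC cows, where 1.45% of all genes were called, 0.679% higher and 0.773% lower. At an unadjusted p under 0.05 alone, 4 genes were higher and 7 lower, against 13.7% of all genes (5.88% higher and 7.81% lower). The median log2 fold change was -0.055 over the 50 genes and -0.015 over all genes. Without cow 912, 47 genes were tested, since SLC3A1, SLC6A7 and SLC7A10 no longer had 20 reads, and SLC1A1 alone was called, where 0.863% of all genes were. At an unadjusted p under 0.05, 5 genes were then higher and 2 lower, against 11.9% of all genes (5.60% higher and 6.32% lower). DESeq2 on all cows called 4 genes, SLC1A1, SLC15A1, SLC15A3 and SLC6A20, where it called 2.44% of all genes. The tools differed in the direction of SLC6A20, with a log2 fold change of 1.40 by DESeq2 and -0.47 by edgeR. The edgeR value was 1.36 without cow 912.

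The acidic carriers of SLC1 take up glutamate and aspartate. SLC1A1 (EAAT3, ENSBTAG00000019125) ranged from 491 to 665 normalized counts in CONHC (median 568), from 471 to 1250 in CONLC (median 751), from 327 to 716 in GLYHC (median 466) and from 315 to 1170 in GLYLC (median 753). HC cows were mostly below LC cows, but the ranges overlapped in both treatments, and the lowest of all 31 values was that of cow 912. The mean was 527 ± 117 (SD, n = 16) in HC and 774 ± 258 (n = 15) in LC cows. SLC1A1 fell by 0.55 on the log2 scale (SE 0.15, edgeR adjusted p = 0.0793), and without cow 912 by 0.61 (SE 0.13, adjusted p = 0.0397). Within treatments its log2 fold change was -0.46 in CON (SE 0.20, adjusted p = 0.802) and -0.65 in GLY (SE 0.21, adjusted p = 0.207). The difference between these changes was -0.20 (SE 0.29, adjusted p = 0.999).

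The call on SLC1A1 was lost without any one of 10 cows, which were CONHC cow 41, CONLC cows 259 and 941, GLYHC cows 32, 127, 131, 152 and 159, and GLYLC cows 42 and 209. Adjusted p was then 0.107 to 0.132. Over all 31 omissions its log2 fold change stayed between -0.61 and -0.48. The other glutamate carrier with over 100 normalized counts, SLC1A2, which in rodent liver marks hepatocytes around the central vein, varied widely within each group, from 42.1 to 319 in CONHC and from 55.6 to 553 in CONLC. Its log2 fold change of HC against LC was -0.10 (SE 0.31). The neutral carrier SLC1A4, which exchanges serine, alanine and cysteine, had a log2 fold change of -0.51 (SE 0.21, adjusted p = 0.258), and without cow 912 of -0.27.

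The SLC15 family carries di- and tripeptides. SLC15A3, a lysosomal carrier known from immune cells (ENSBTAG00000018366), ranged from 77.5 to 195 in CONHC (median 147), from 47.5 to 184 in CONLC (median 114), from 121 to 230 in GLYHC (median 172) and from 71.7 to 172 in GLYLC (median 102). HC cows were mostly above LC cows, with overlap in both treatments. The mean was 156 ± 37.8 (SD, n = 16) in HC and 108 ± 35.3 (n = 15) in LC cows, a log2 fold change of 0.52 (SE 0.15, edgeR adjusted p = 0.0948). It was called in 8 of the 31 fits that left out 1 cow, those without CONHC cow 7, 134 or 170, CONLC cow 169 or 260, GLYHC cow 37 or 154 or GLYLC cow 544, and in the other 23, that without cow 912 among them, adjusted p was 0.102 to 0.143. Within treatments the log2 fold change was 0.36 in CON (SE 0.20, adjusted p = 0.872) and 0.69 in GLY (SE 0.21, adjusted p = 0.181), and the difference between them was 0.33 (SE 0.29, adjusted p = 0.999).

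Markers of other cells differed in the same comparison as SLC15A3. Of 10 macrophage and Kupffer cell markers, 6 were higher in HC cows at an unadjusted p under 0.05, against 5.88% of all genes. CD68 (log2 fold change 0.61) and CD5L (0.41) were called, where 0.679% of all genes were called higher. Without cow 912, 5 of 10 were higher at that level, against 5.60% of all genes, and none was called by edgeR, where 0.863% of all genes were. The summed level of the list was 11900 to 33100 in CONHC, 14700 to 27900 in CONLC, 14100 to 35200 in GLYHC and 14500 to 28000 in GLYLC, with none of the markers at 0 in any group. Of 5 epidermis markers, the keratin genes KRT14, KRT10 and KRT1 were higher in HC cows at that level, with and without cow 912, and KRT14 (log2 fold change 2.40) and KRT1 (4.23) were called with all cows and not without it. KRT5 and DSP were not at that level. Within CON cows none of the 5 was higher at that level, against 2.71% of all genes. Within GLY cows the same 3 were, against 5.06%. KRT1 had a mean of 22.5 ± 35.9 (SD, n = 8) in GLYHC and of at most 0.451 in the other groups. The summed level of that list was 1350 to 3350 per cow over the 4 groups. Most of it came from DSP, with group means of 2030 to 2270. No marker of the list was at 0 in every cow of a group, but KRT1 was at 0 in 22 of 31 cows. The part of macrophages or epidermis in the difference in SLC15A3 was not tested. SLC15A4, the other lysosomal member, had means between 353 and 377 in the 4 groups and a log2 fold change of HC against LC of 0.07 (SE 0.06).

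SLC15A1 (PEPT1, ENSBTAG00000004440), the proton-driven peptide carrier of the small intestine, ranged from 6.91 to 55.8 in CONHC (median 29.2), from 10.6 to 83.6 in CONLC (median 37.5), from 7.26 to 37.3 in GLYHC (median 23.1) and from 38.8 to 110 in GLYLC (median 48.6). Every GLYLC cow was above every GLYHC cow, whereas the CON groups overlapped. SLC15A1 was the only one of the 50 genes whose 2 GLY groups did not overlap, where 0.0942% of all genes did not and 0.0691% lay lower in GLYHC, and no gene of the 50 was free of overlap in CON, where 0.0188% of all genes were. Without cow 912 it was again the only one in GLY, where 0.157% of all genes did not overlap.

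In GLY cows the log2 fold change of SLC15A1 was -1.56 (SE 0.39, unadjusted p = 0.000361, edgeR adjusted p = 0.1003), just outside the threshold. Over all cows it was -0.99 (SE 0.29, adjusted p = 0.107) and in CON cows -0.42 (SE 0.38, adjusted p = 0.962). The change in GLY minus the change in CON was -1.13 (SE 0.54, unadjusted p = 0.0457, adjusted p = 0.999), so that a difference between treatments was not shown. SLC15A1 was called in GLY cows without CONLC cow 166 or GLYLC cow 102, 147 or 905, with adjusted p from 0.0724 to 0.0972. DESeq2 called it as well, with an adjusted p of 0.0412 on all cows and of 0.00803 on the 2 GLY groups alone. The value of cow 912, with its high intestinal markers, was 48.6 and lay within its group. Without that cow the log2 fold change in GLY was -1.63 (SE 0.40, adjusted p = 0.280).

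**Figure D2:**
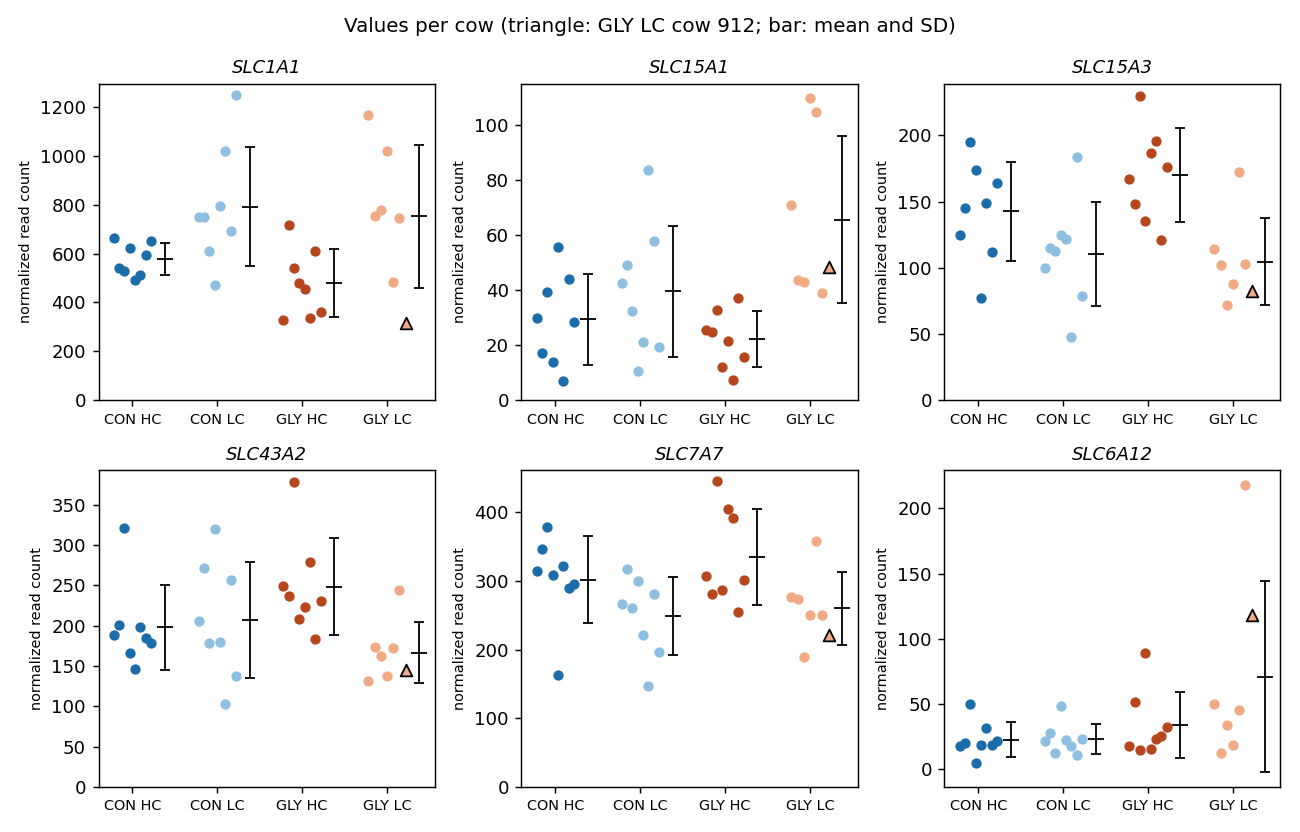
Normalized read counts of 6 genes in each cow (points) of the 4 groups, with the group mean and SD (bars; n = 8, 8, 8 and 7) and GLYLC cow 912 as a triangle. SLC1A1 and SLC15A1 lie lower and SLC15A3 and SLC7A7 higher in HC cows, with SLC15A1 free of overlap between the GLY groups, and 1 GLYLC cow carries the highest SLC6A12 value of 218.

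Within GLY cows, no gene of the 50 was called by edgeR, where 0.201% of all genes were. At an unadjusted p under 0.05, 5 genes were higher and 6 lower in GLYHC than in GLYLC, against 12.5% of all genes (5.06% higher and 7.45% lower), and without cow 912 the counts were 5 and 2 of 47, against 8.37%. DESeq2 called 1 gene, SLC15A1, on all cows, where it called 0.685% of all genes, and 3, SLC15A1, SLC15A3 and SLC43A2, on the 2 GLY groups alone, where it called 0.537%. These 3 are on the study's list of concentrate-responsive genes in GLY cows, which was made from the same cows, so that list is not independent evidence of their direction. Within CON cows, no gene of the 50 was called by edgeR or DESeq2. There edgeR called 0% of all genes, and DESeq2 0.151% on all cows and 0.446% on the 2 CON groups alone. By edgeR, 3 genes, SLC1A1, SLC6A2 and SLC7A11, were lower in CONHC at an unadjusted p under 0.05 and none higher, against 5.96% of all genes (3.25% lower and 2.71% higher). DESeq2 on all cows gave 1 gene at that level, against 5.86% of all genes. Without cow 912, edgeR gave 4 lower and 1 higher of 47, against 7.16% of all genes, and called none. SLC6A2 and SLC7A11 were each at 0 in 7 of 8 CONHC cows. The median of assigned reads was lowest in CONHC, 15639368 against at least 20722019 in the other groups.

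The facilitative carrier SLC43A2 exports and imports large neutral amino acids such as leucine and phenylalanine. It ranged from 183 to 379 in GLYHC (median 234) and from 131 to 244 in GLYLC (median 163), and from 146 to 321 in CONHC (median 186) and 103 to 320 in CONLC (median 193). GLYHC cows were mostly above GLYLC cows, and the CON groups covered the same range. The log2 fold change was 0.58 in GLY (SE 0.19, adjusted p = 0.219) and -0.07 in CON (SE 0.19, adjusted p = 0.997), and the difference of 0.65 (SE 0.27) had an unadjusted p of 0.0219 and an adjusted p of 0.999. SLC43A3, a carrier of purine bases, had means of 15.8 to 19.3 and a log2 fold change over all cows of 0.13 (SE 0.19).

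Of the heavy chains, SLC3A2 was read in every cow, with means of 560 ± 71.1 (SD) in CONHC, 598 ± 51.4 in CONLC, 560 ± 92.9 in GLYHC and 637 ± 146 in GLYLC. Its log2 fold change of HC against LC was -0.14 (SE 0.08) over all cows. SLC3A1, the heavy chain of the cystine and dibasic amino acid carrier of kidney and intestine, was at 0 in 17 of 31 cows and at most 3.39 in the others except cow 912, where it was 85.1. Its log2 fold changes, -3.01 for HC against LC (SE 0.96, adjusted p = 0.139) and 3.38 for GLY against CON in LC cows (SE 1.09, adjusted p = 0.455), rest on that cow, and without it SLC3A1 had too few reads to be tested. SLC7A9, the light chain of the same carrier, was read at means of 287 to 322 in the 4 groups and at 160 in cow 912, the lowest of all cows.

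Among the light chains of SLC7, SLC7A7, which exports cationic amino acids in exchange for neutral ones and sodium, ranged from 163 to 378 in CONHC (median 312), from 147 to 317 in CONLC (median 263), from 254 to 446 in GLYHC (median 304) and from 189 to 358 in GLYLC (median 251). HC cows lay higher in both treatments, with wide overlap. The mean was 318 ± 66.4 (SD, n = 16) in HC and 254 ± 53.4 (n = 15) in LC cows, a log2 fold change of 0.32 (SE 0.11, adjusted p = 0.177). SLC7A5, which exchanges large neutral amino acids, had medians of 10.4, 17.5, 14.3 and 8.56 in CONHC, CONLC, GLYHC and GLYLC, and 183 in cow 912 against at most 38.6 elsewhere. The cystine-glutamate exchanger SLC7A11 was at 0 in 17 cows and reached 13.7 in cow 912 against at most 3.16 elsewhere. Of the cationic carriers, SLC7A2, which supplies arginine to hepatocytes, had means of 366 to 384 and a log2 fold change of HC against LC of 0.04 (SE 0.19).

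The direction of SLC7A5 in GLY cows turned when cow 912 was left out. With all cows, its log2 fold change of HC against LC was -0.98 in CON (SE 0.59) and -0.99 in GLY (SE 0.57). Without cow 912 it was -0.98 in CON (SE 0.33, unadjusted p = 0.00533) and 0.91 in GLY (SE 0.36, unadjusted p = 0.0156). The difference between treatments was then 1.89 (SE 0.48, unadjusted p = 0.00048) with an edgeR adjusted p of 0.9999, and it was not called. For GLY against CON in LC cows its log2 fold change was 0.68 with all cows (SE 0.56) and -1.21 without cow 912 (SE 0.35, unadjusted p = 0.0018, adjusted p = 1.0). SLC7A11 had -1.57 in GLY for HC against LC with all cows and 0.96 without cow 912, and 0.65 and -1.88 for GLY against CON in LC cows.

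**Figure D3:**
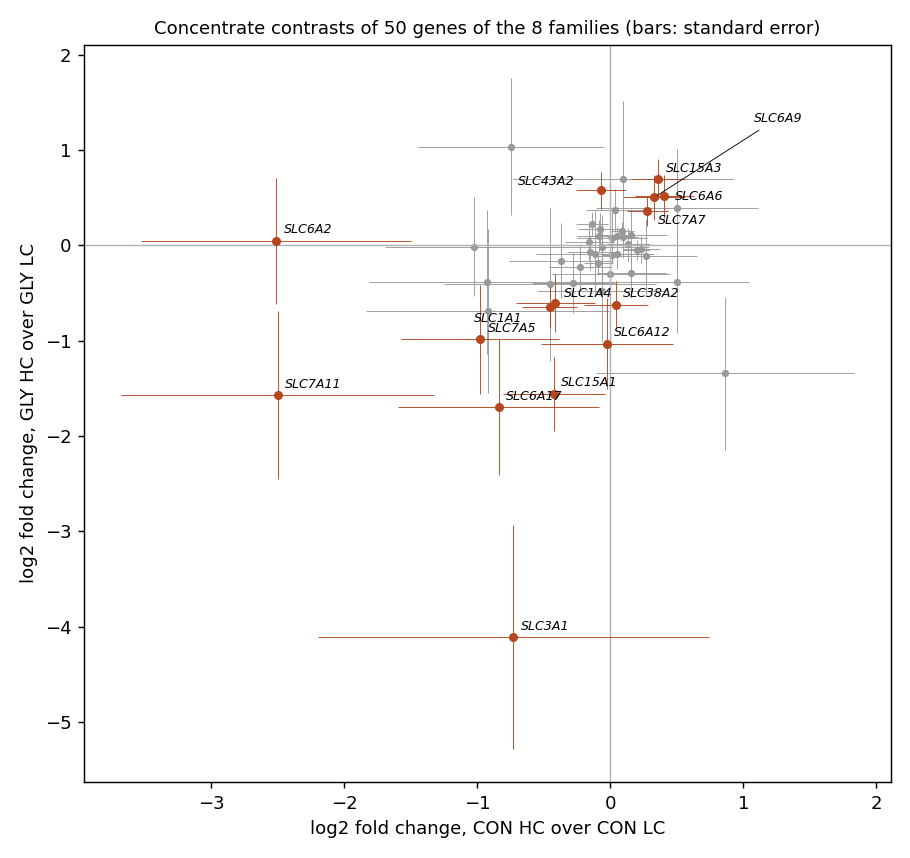
Log2 fold change of GLY HC over GLY LC (vertical) against that of CON HC over CON LC (horizontal) for the 50 genes, with standard errors as bars. Genes in colour have an unadjusted p under 0.05 in CON, in GLY or over all cows. SLC1A1, SLC15A1, SLC1A4 and SLC7A5 lie below 0 and SLC15A3, SLC6A6, SLC6A9 and SLC7A7 above 0 in both treatments, and SLC43A2 lies above 0 in GLY only. The GLY values of SLC3A1 (-4.11) and SLC7A5 (-0.99) rest on cow 912, and other GLY values depend on it too. Without cow 912 the GLY value is 0.91 for SLC7A5, 0.96 for SLC7A11, -0.10 for SLC1A4 and -0.03 for SLC6A17.

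Pairs of heavy and light chains were compared over the 31 cows in log2 CPM, 7 pairs in all. Pearson's r was 0.53 for SLC3A2 with SLC7A5 (permutation test, adjusted p = 0.0218, Spearman's rho = 0.24 with adjusted p = 0.276) and 0.62 for SLC3A2 with SLC7A11 (permutation test, adjusted p = 0.00847, rho = 0.42 with adjusted p = 0.133). Without cow 912, r was 0.18 and 0.33, and without the 2 cows farthest from the median of SLC3A2 it was 0.12 and 0.30, so that both relations rest on these cows. SLC3A1 with SLC7A9 had r = -0.41 (permutation test, adjusted p = 0.0816, rho = -0.07 with adjusted p = 0.708), and without cow 912 r = 0.09. The other 4 pairs, of SLC3A2 with SLC7A6, SLC7A7, SLC7A8 and SLC7A10, had r between -0.27 and 0.24 and adjusted p of 0.243 or more by permutation test.

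In SLC6, the taurine carrier SLC6A6 ranged from 18.3 to 42.7 in CONHC (median 26.9), from 10.6 to 32.7 in CONLC (median 20), from 25.1 to 58.8 in GLYHC (median 32.6) and from 20.2 to 32.8 in GLYLC (median 23.3). HC cows lay higher in both treatments with overlap, and the log2 fold change over all cows was 0.46 (SE 0.16, adjusted p = 0.168). The glycine carrier SLC6A9 had means of 38 ± 14.4 (SD, n = 16) in HC and 28.1 ± 6.49 (n = 15) in LC cows and a log2 fold change of 0.41 (SE 0.17, adjusted p = 0.246). SLC6A11 had means of 1980 ± 494 in CONHC, 1930 ± 810 in CONLC, 2530 ± 823 in GLYHC and 1970 ± 621 in GLYLC and a log2 fold change of 0.20 (SE 0.16). The creatine carrier SLC6A8 had means of 105 to 114. The noradrenaline carrier SLC6A2 was at most 4.91 in any cow and the vesicular carrier SLC6A17 at most 7.55 outside cow 912, where it was 28.1, so that their fold changes stand on few reads.

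GLY was compared with CON over all cows, with concentrate as a covariate, and within HC and LC cows. No gene of the 50 was called by edgeR or DESeq2 in any of the 3 comparisons, where edgeR called 0% of all genes over all cows, 0% in HC and 0.0628% in LC cows. DESeq2 on all cows called 0.00628%, 0% and 0.0251% of all genes in the same order. At an unadjusted p under 0.05, edgeR gave 5 genes higher and none lower over all cows (3.92% of all genes, 2.48% higher and 1.45% lower), none in HC cows (2.92%) and 4 higher and none lower in LC cows (5.65%, 3.71% higher and 1.94% lower). DESeq2 on all cows gave 4, 0 and 4 genes at that level, against 3.32%, 2.91% and 4.71% of all genes. Without cow 912, edgeR gave 1 of 47 genes over all cows, SLC6A12, against 2.76% of all genes. It gave 2 genes in HC cows, against 3.52%, and 2 higher and 2 lower in LC cows, against 3.07%. In every gene of the 50, GLY and CON cows overlapped in HC and in LC, where 0.00628% of all genes in each did not, and without cow 912 they again overlapped in LC, where 0.0251% of all genes did not. The comparisons of GLY with CON share their cows with those of concentrate.

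SLC6A12 (ENSBTAG00000038415), which carries betaine and GABA and is known as an osmolyte carrier, had the smallest p in these comparisons with all cows. It ranged from 4.66 to 50.1 in CONHC (median 19.3), from 11.4 to 48.3 in CONLC (median 22.3), from 14.9 to 89.2 in GLYHC (median 24.7) and from 12.5 to 218 in GLYLC (median 45.8). Most GLY cows lay within the range of CON cows and a few far above it. Over all cows the mean was 51.2 ± 54.8 (SD, n = 15) in GLY and 23.0 ± 12.0 (n = 16) in CON, a log2 fold change of 1.10 (SE 0.35, unadjusted p = 0.00384, adjusted p = 0.808). In LC cows it was 1.60 (SE 0.49, unadjusted p = 0.00266, adjusted p = 0.405), between 1.0 and 1.86 with each cow left out in turn, and 1.43 without cow 912.

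SLC6A14, a carrier of neutral and cationic amino acids, had means of 158 ± 53.7 (SD, n = 15) in GLY and 121 ± 48.5 (n = 16) in CON cows, a log2 fold change of 0.38 (SE 0.18, adjusted p = 0.9999). The glutamine carrier SLC38A1 had means of 11.3 ± 6.26 and 7.47 ± 2.22 and a log2 fold change of 0.59 (SE 0.24, adjusted p = 0.9999). SLC6A20 was at most 13.6 outside cow 912 and 92.7 in it, and its log2 fold change in LC cows was 2.80 with all cows and -0.50 without that cow. For HC against LC it was -1.35 in GLY with all cows and 1.94 without that cow (unadjusted p = 0.0040, adjusted p = 0.420), and over all cows -0.47 and 1.36 (unadjusted p = 0.0033, adjusted p = 0.161). In the test of the interaction no gene was called by edgeR or DESeq2 (0% of all genes by edgeR). SLC38A7, a lysosomal glutamine and asparagine carrier, and SLC43A2 were above 0 and SLC15A1 below 0 at an unadjusted p under 0.05, against 4.21% of all genes (1.90% above and 2.31% below 0). DESeq2 gave 3 genes at that level, against 4.03% of all genes. Without cow 912, edgeR gave 3 above and 2 below 0 of 47, against 3.47%.

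With all 31 cows, the genes that did not reach an unadjusted p under 0.05 numbered 39 in the comparison of HC with LC over all cows, and among the 27 of these with a mean of 10 or more normalized counts the log2 fold changes lay between -0.55 and 0.24. For GLY against CON over all cows they numbered 45, and the 33 with a mean of 10 or more lay between -0.64 and 0.68. The SLC36 carriers SLC36A1 and SLC36A4 were among them, with log2 fold changes of HC against LC of 0.01 (SE 0.12) and -0.06 (SE 0.13).

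In GLYLC cow 912, 13 of the 50 genes were more than 1 log2 unit above the median of the other 30 cows, 6 of them by more than 2, and none was more than 1 unit below it. Besides the carriers named above, these included SLC38A2, a sodium-coupled carrier induced by amino acid shortage, at 3110 against at most 1580 in the other cows, SLC1A4 at 228 against 128, the arginine and lysine carrier SLC7A1 at 114 against 52.0 and SLC38A1 at 28.1 against 17.0. SLC3A2 was at 951 against 695. Cow 912 was also highest in 5 of 10 genes of the amino acid response. The transcription factor ATF4 was at 9950 against at most 5510, asparagine synthetase ASNS at 1060 against 424, CHAC1 at 156 against 7.43, DDIT3 at 478 against 257 and TRIB3 at 470 against 272. The serine synthesis genes PHGDH and PSAT1 of the same list were lowest of all cows in cow 912. The part of intestinal cells or of the amino acid response in these values was not tested.

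**Figure D4:**
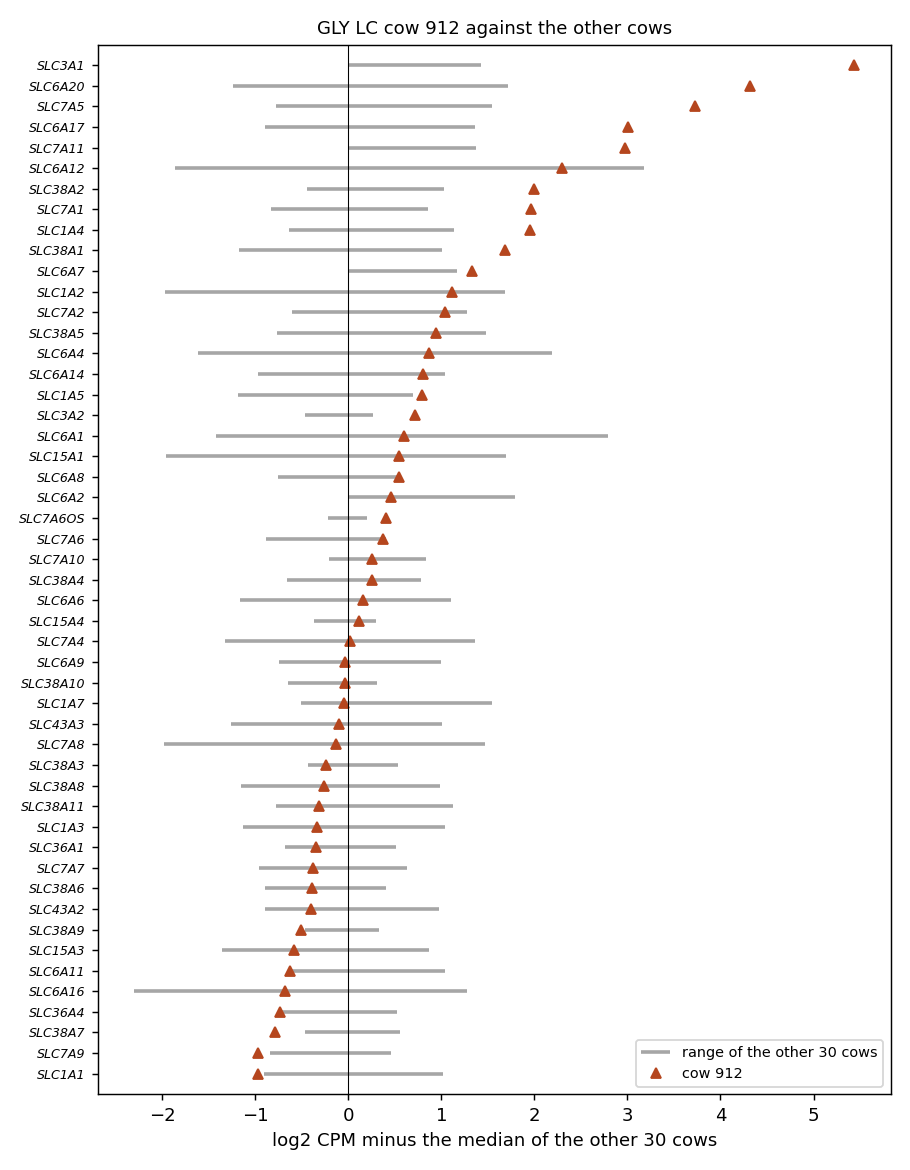
Log2 CPM of GLYLC cow 912 (triangles) minus the median of the other 30 cows for each of the 50 genes, beside the lowest to highest of the other 30 cows on the same scale (lines). SLC3A1, SLC6A20, SLC7A5, SLC6A17 and SLC7A11 lie farthest beyond the other cows, and SLC1A1, SLC7A9, SLC38A7 and SLC38A9 lie below all of them.

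Other carriers and genes of the amino acid response were read from 2 further lists. Of 12 tested carriers and partners outside the 8 families, SLC17A7, a vesicular glutamate carrier, was lower in HC cows at an unadjusted p under 0.05 (log2 fold change -1.76, SE 0.73, adjusted p = 0.264), and it was highest in cow 912. For GLY against CON over all cows, SLC17A7 was higher and the lysosomal cystine carrier CTNS and the mitochondrial ornithine carrier SLC25A15 lower at that level, and none was called. Without cow 912, none of 11 was at that level for HC against LC, and CTNS (lower) and SLC25A44 (higher) were for GLY against CON. Of the 10 genes of the amino acid response, ASNS, CHAC1, TRIB3, ATF4 and DDIT3, the 5 that were highest in cow 912, were lower in HC cows at an unadjusted p under 0.05, where 7.81% of all genes were lower, and none was called by edgeR. The median log2 fold change of the list was -0.30. Without cow 912, ASNS, ATF4, ATF5 and DDIT3 were lower, where 6.32% of all genes were, and none was called. Within CON cows 6 of the 10 were then lower at that level, against 3.83% of all genes, and within GLY cows none was, against 4.44%. With all cows, ATF5, VLDLR and PHGDH were lower within CON cows at that level, 3 of 10, against 3.25% of all genes. Within GLY cows ASNS, CHAC1 and ATF4 were lower with all cows, also 3 of 10, against 7.45%. Over all cows, the 6 stellate cell and fibroblast markers were all lower in HC cows at that level, against 7.81% of all genes. DCN was called, where 0.773% of all genes were called lower. Within CON cows DCN, COL1A1, COL1A2 and COL3A1 were lower at that level, and within GLY cows DCN and RGS5. COL1A1 had a mean of 1330 ± 3120 (SD, n = 8) in CONLC and of at most 195 in the other groups. RGS5 was at 565 in cow 912 against at most 153 in the other cows. Without cow 912, 4 of 6 were lower over all cows at that level, against 6.32% of all genes, and DCN was called. Within GLY cows only DCN was then lower at that level. The summed level of these 6 was 2890 to 4840 in CONHC, 2670 to 44500 in CONLC (median 4240), 1910 to 3780 in GLYHC and 3390 to 6230 in GLYLC, with none at 0 in any group. Their part in the lower SLC1A1 of HC cows was not tested.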

How the data were processed

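Raw read counts per gene of 31 liver libraries were deposited by the authors, who trimmed reads with Trim Galore, aligned them to UMD3.1 with HISAT2 2.1.0 and counted uniquely mapped reads with HTSeq 0.8.0. The libraries were stranded, and whether counting used strand is not given in the sources used here, so SLC7A6 and the neighbouring SLC7A6OS may share reads. A second table of normalized values was not used. The cows of a group are separate animals, and no 2 libraries of a group agreed within sampling noise (chi-square per gene of 24.5 to 487 over 105 pairs).

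The 15916 genes whose reads over all cows came to 20 or more entered edgeR 4.0.16 in R 4.3.3 (TMM, quasi-likelihood F test), in 1 model with the 4 groups, and in additive models over all cows. Adjusted p-values are Benjamini-Hochberg values over all genes. A standard error is the size of a log2 fold change over the root of its F. Log2 CPM used a prior count of 2, and correlations used 100000 two-sided permutations. The steps were tested on simulated counts. Alternatives were RLE and upper-quartile normalization, genes with at least 1 read, filterByExpr with a minimum of 10 reads, fits to only the 2 compared groups, an adjusted p limit of 0.05, DESeq2 1.42.0 and each cow left out. DESeq2 kept its default treatment of outlying counts, which can replace such a count in groups of 7 or more before testing. Its values therefore need not rest on the same counts as those of edgeR. Counts of transporters and markers without cow 912 were chosen after seeing the data.

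Genes are named with values where they were called, had an unadjusted p under 0.05, were among the 3 members of a family with the highest mean or the 3 with the largest SD, were heavy chains or SLC15 members, or were in the study's lists. SLC6A7, SLC38A9, SLC38A10, SLC7A1, SLC7A10 and SLC7A6OS were named after their values were seen. The genes, marker lists and tests were chosen with earlier results of these data known. SLC15A2 and SLC43A1 were not analysed here.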

Additional observations from a re-analysis of the deposited data

Results flagged for a closer look

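Single cows that lay far from the rest of their group were looked for in 128 sets of values, which are the 33 named genes in the 4 groups as far as they were read (log2 CPM, Dixon's 95% limit). Chance gives about 1 in 20 such sets, and 18 were found. Of these, 8 were the value of GLYLC cow 912, the highest of its group: 85.1 normalized counts of SLC3A1, 92.7 of SLC6A20, 183 of SLC7A5, 28.1 of SLC6A17, 13.7 of SLC7A11, 3110 of SLC38A2, 228 of SLC1A4 and 951 of SLC3A2.

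In CONHC, cow 133 was high in SLC38A1 (11.7) and SLC7A11 (1.17) and low in SLC6A12 (4.66). CONHC cow 208 was high in SLC38A2 (1580) and SLC6A2 (1.14), and CONHC cow 123 in SLC43A2 (321). CONHC cow 144 was low in SLC3A2 (415) and CONHC cow 134 low in SLC7A7 (163). In GLYHC, cow 131 was high in SLC3A1 (3.39) and cow 127 in SLC6A2 (2.44). The values of SLC3A1, SLC6A2 and SLC7A11 in these cows stand on a few reads each. For SLC6A2 and SLC7A11 in CONHC, every other cow of the group was at 0.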

How the results depend on the processing

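No gene of the 50 was called under any alternative in CON cows, for GLY against CON or for the interaction. In GLY cows, HC against LC gave 1 call with RLE normalization and with DESeq2 on all cows (SLC15A1), 3 with DESeq2 on the 2 GLY groups and 0 to 2 with each cow left out, with calls without CONLC cow 166 and GLYLC cows 102, 147, 209, 544 and 905. Over all cows, HC against LC gave 0 calls at an adjusted p under 0.05, 1 with genes of at least 1 read (SLC1A1), 4 with DESeq2 and 0 to 4 with each cow left out. The correlation of SLC3A2 with SLC7A5 ranged from 0.18 to 0.61, that with SLC7A11 from 0.33 to 0.70 and that of SLC3A1 with SLC7A9 from -0.50 to 0.091 with each cow left out, with the end nearest to or past 0 without cow 912. Among the comparisons in which a gene was past an unadjusted p under 0.05 with all cows, reversed log2 fold changes were those of SLC3A1 with DESeq2, 1.58 on all cows and 1.64 on 2 groups for HC against LC in GLY, -2.30 in both for GLY against CON in LC, 0.21 for HC against LC over all cows and -1.14 for GLY against CON over all cows, and those of SLC6A20 for GLY against CON in LC, -0.39 and -0.49 with DESeq2 and, with each cow left out, -0.50 (without cow 912) to 3.01. Further values that turned without cow 912 and were then past that level are given for SLC7A5, SLC7A11 and SLC6A20 with those genes. DESeq2 can replace outlying counts by default, and the part of this in the reversals was not tested. Of 280 values of single genes under alternatives, 259 kept direction and call. Without cow 912, counts at an unadjusted p under 0.05 changed from 3 to 5 in CON, 11 to 7 in GLY, 0 to 2 for GLY against CON in HC, 3 to 5 for the interaction, 11 to 7 for HC against LC over all cows and 5 to 1 for GLY against CON over all cows. No paired analysis was possible because no cow number occurs in 2 groups. Depth limits the 15 genes with a mean under 10 normalized counts, whose fold changes stand on few reads.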
